A study of Mus musculus with 4 samples.

Results

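Open promoters without H2A.Z are here the promoters of protein-coding genes that had an ATACseq peak and no H2A.Z peak in the WT mouse liver. They were chosen by the WT peak lists. A transcription start site (TSS) of a GENCODE vM21 protein-coding gene on chromosomes 1 to 19 was kept if a WT ATACseq peak overlapped the 250 bp on either side of it and no WT H2A.Z peak overlapped the 500 bp on either side. TSSs with a protein-coding TSS on the opposite strand within 1 kb were left out beforehand, because such a pair can share its promoter. The orientation of the pair was not considered. Of 20807 coding genes, 2321 were left out for this reason, and 369 of the 18486 remaining TSSs met the rule. The open state and the absence of H2A.Z in WT are therefore the selection and not a result. The Uhrf1hepKO lists and the DNA sequence had no part in it.

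ATACseq and H2A.Z ChIPseq were performed on the liver of 1 WT mouse and the liver of 1 Uhrf1hepKO mouse, which gives 4 libraries. Both were C57Bl/6 males of 8 to 12 weeks on a normal diet. The WT mouse carried floxed Uhrf1 alleles without a Cre (Uhrf1-Fl/fl), and the Uhrf1hepKO mouse carried the floxed alleles with Alb:Cre. The albumin promoter drives this Cre in hepatocytes, so the deletion is directed at these cells. Uhrf1 is a protein required to copy DNA methylation after replication. ATACseq finds accessible DNA by the insertions of the Tn5 transposase, and H2A.Z was mapped on chromatin digested with micrococcal nuclease to single nucleosomes. As there was 1 library per condition, no spread between mice is known and no p-value is given. The Wilson 95% intervals beside the shares cover counting error only.

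H2A.Z is a variant of histone H2A that the SRCAP and EP400 complexes place into nucleosomes around gene starts. At a typical open promoter a stretch free of nucleosomes lies over the TSS, and H2A.Z is found in the nucleosomes that border it upstream and downstream. Promoters rich in CpG dinucleotides serve mostly housekeeping and regulatory genes, whereas promoters poor in CpGs are frequent among genes expressed in a single tissue.

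The promoters of 12 members are printed to show the range of sequences in the set, from the CpG-rich promoters of Hspa5, Herpud1 and Per2 to the CpG-poor promoters of Tef, a clock gene, and of Fgg, Hpx and Agt, which encode secreted liver proteins, together with the members of highest WT ATACseq fold. These 12 were chosen after their values were seen. Each is the 200 bases before the TSS, 5′ to 3′ on the strand of the gene, from the RefSeq sequence of GRCm38. Capitals mark matches to the GC box GGGCGG, the CCAAT box CCAAT and the ETS motif CCGGAA on either strand, and to the TATA box TATAAA between −40 and −16 on the strand of the gene.
Hspa5 (chr2:34771770-34771969, plus strand): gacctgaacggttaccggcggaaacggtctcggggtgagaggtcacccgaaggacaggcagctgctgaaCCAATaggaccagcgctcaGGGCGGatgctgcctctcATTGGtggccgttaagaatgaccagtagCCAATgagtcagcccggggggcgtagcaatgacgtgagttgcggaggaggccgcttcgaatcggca
Herpud1 (chr8:94386238-94386437, plus strand): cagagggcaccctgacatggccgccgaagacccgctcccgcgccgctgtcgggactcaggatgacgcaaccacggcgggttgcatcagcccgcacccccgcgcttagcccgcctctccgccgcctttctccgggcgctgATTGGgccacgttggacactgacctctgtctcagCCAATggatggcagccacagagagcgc
Per2 (chr1:91459325-91459524, minus strand): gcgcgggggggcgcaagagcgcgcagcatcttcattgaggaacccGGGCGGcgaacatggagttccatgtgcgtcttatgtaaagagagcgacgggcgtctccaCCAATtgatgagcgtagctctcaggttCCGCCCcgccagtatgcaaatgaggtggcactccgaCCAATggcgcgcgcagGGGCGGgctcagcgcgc
Dbp (chr7:45704888-45705087, plus strand): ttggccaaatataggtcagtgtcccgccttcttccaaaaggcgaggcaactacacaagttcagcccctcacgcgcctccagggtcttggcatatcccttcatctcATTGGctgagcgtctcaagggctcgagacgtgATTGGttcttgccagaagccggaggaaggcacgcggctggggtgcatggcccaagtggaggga
Tef (chr15:81802221-81802420, plus strand): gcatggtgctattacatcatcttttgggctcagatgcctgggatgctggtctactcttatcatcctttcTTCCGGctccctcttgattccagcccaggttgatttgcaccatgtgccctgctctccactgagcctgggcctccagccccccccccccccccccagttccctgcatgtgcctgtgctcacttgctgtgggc
Jun (chr4:95052223-95052422, minus strand): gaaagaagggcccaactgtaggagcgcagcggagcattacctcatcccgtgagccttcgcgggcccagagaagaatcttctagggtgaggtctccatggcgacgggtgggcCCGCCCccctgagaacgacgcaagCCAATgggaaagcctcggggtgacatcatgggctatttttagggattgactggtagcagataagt
Klf10 (chr15:38300707-38300906, minus strand): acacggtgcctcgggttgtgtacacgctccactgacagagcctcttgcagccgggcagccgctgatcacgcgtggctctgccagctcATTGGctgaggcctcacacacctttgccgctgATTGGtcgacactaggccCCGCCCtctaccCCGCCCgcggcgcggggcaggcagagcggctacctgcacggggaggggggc
Fgg (chr3:83007524-83007723, plus strand): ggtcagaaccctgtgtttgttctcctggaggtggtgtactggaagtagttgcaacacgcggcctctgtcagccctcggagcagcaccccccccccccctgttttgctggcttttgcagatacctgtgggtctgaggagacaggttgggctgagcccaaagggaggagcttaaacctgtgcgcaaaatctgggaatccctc
Hpx (chr7:105600138-105600337, minus strand): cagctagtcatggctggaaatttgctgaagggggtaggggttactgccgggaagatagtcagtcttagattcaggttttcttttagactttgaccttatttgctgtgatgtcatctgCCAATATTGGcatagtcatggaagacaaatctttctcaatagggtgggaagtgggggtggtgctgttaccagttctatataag
Agt (chr8:124569707-124569906, minus strand): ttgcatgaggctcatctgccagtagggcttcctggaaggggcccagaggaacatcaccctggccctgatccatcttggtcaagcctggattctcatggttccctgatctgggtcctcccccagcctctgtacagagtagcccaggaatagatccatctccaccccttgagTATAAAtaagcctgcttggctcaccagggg
Prmt5 (chr14:54517526-54517725, minus strand): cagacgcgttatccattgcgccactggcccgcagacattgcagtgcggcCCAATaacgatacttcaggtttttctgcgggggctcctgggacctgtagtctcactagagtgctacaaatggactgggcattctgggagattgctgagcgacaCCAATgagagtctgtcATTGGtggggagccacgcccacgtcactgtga
Brsk2 (chr7:141949551-141949750, plus strand): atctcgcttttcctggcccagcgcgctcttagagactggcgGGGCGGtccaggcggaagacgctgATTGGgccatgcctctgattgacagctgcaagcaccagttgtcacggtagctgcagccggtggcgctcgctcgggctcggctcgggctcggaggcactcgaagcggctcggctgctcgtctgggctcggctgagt

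These sequences held between 0 CpGs (Agt, the precursor of angiotensin) and 22 CpGs (Per2, a repressor of the circadian clock). Hspa5, the chaperone BiP of the endoplasmic reticulum, held 3 CCAAT boxes, in which the matches began at −131, −94 and −66. Prmt5, an arginine methyltransferase, also held 3, and Per2 held 2 CCAAT boxes and 3 GC boxes. Agt held a TATA box at −30 and no other motif of those marked. No motif was marked in Fgg, the fibrinogen gamma chain. A match describes the letters and not the binding of a factor.

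The 4 lists held 10758 peaks for WT ATACseq, 10972 for Uhrf1hepKO ATACseq, 51702 for WT H2A.Z and 47391 for Uhrf1hepKO H2A.Z. A WT ATACseq peak lay at 3912 eligible TSSs, 21.2% of them, and a WT H2A.Z peak at 39.7%. The same windows held a Uhrf1hepKO ATACseq peak at 19.2% and a Uhrf1hepKO H2A.Z peak at 38.5%. Depth is known only through these lists, and a promoter without a peak may hold reads too few to be called. Of 9 hepatocyte markers, none had a WT ATACseq peak within 5 kb, 1 (Alb) had one in Uhrf1hepKO, and 2 in WT (Ttr, Fgb) and 1 in Uhrf1hepKO (Fgb) had H2A.Z, so these lists hold few of the tissue's marker genes. Markers of other cells had peaks within 5 kb in a few cases, with WT ATACseq at Sox9, Col1a1 and Hba-a1. No promoter of the lists of Kupffer cell, endothelial, or cholangiocyte and stellate cell markers was open in either liver, and 0 members came from them.

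The 369 members were 9.43% of the promoters open in WT. The other open promoters held WT H2A.Z on both sides of the TSS in 1936 cases and on 1 side in 1607 cases. At members the fold of the WT ATACseq peak over its local background, a value of the authors' peak caller, had a median of 4.33 and a range of 2.95 to 9.89. The interquartile range of the peak widths was 178 to 414 bp. With H2A.Z on 1 side and on both sides the median folds were 4.67 and 4.78. When all open promoters were ranked by WT fold and cut into 4 classes of equal size, 39.8% of the members fell in the lowest class and 13.8% in the highest. Since the WT ATACseq peaks took part in the selection, these values are a description.

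The WT ATACseq peaks of members lay more to the upstream side of the TSS. Their centers had a median position of −74 bp, against −45.5 bp with H2A.Z on 1 side and 5 bp with H2A.Z on both sides. The shift was larger at the 111 members with WT H2A.Z beyond 500 bp but within 1000 bp of the TSS, where the median position was −155.5 bp. At the other 258 members it was −47.5 bp, about that of promoters with H2A.Z on 1 side. The TSS itself was under the peak at 218 members, 59.1%, and at 77.4% of the 3543 open promoters with H2A.Z. In Uhrf1hepKO the center lay upstream at 184 of the 240 members with a peak and had a median position of −83.25 bp. It was −187.5 bp at members of the first kind and −61 bp at the others, against −51.75 bp with WT H2A.Z on 1 side. The plot of peak cover around the TSS shows the placement over all members and the gap in H2A.Z that the rule cut out.

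**Figure D1:**
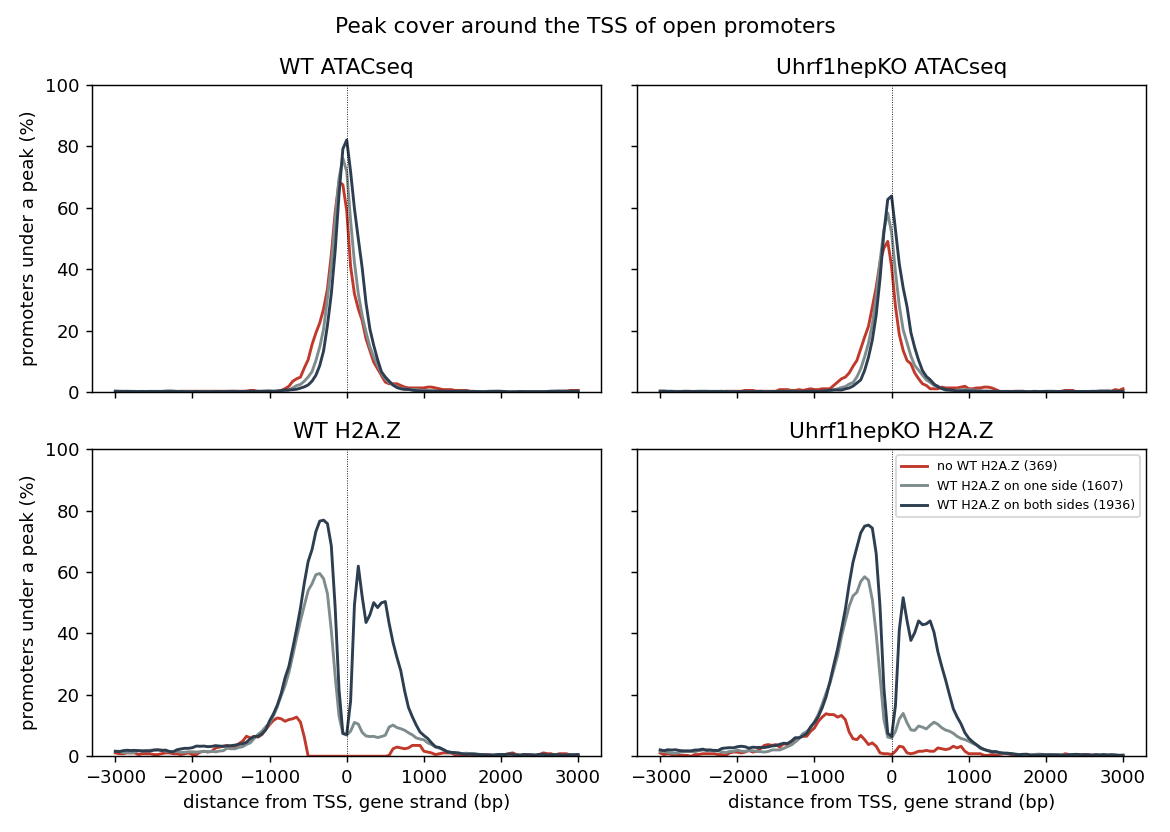
Percent of promoters (y axis) whose base at each distance from the TSS in bp (x axis, upstream to the left) lay under a peak of each of the 4 libraries, for the 369 members (red), 1607 open promoters with WT H2A.Z on 1 side (gray) and 1936 with it on both sides (dark blue). In Uhrf1hepKO, H2A.Z cover of the members peaked at 13.8% at −850 bp, against 75.3% at −300 bp with H2A.Z on both sides.

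The edges of the rule were narrow. Acaa2, a thiolase of mitochondrial fatty acid oxidation, Raly, an RNA-binding protein, and Rnf44, a RING finger protein, were members with the nearest WT H2A.Z peak at 502, 503 and 504 bp from the TSS. Csnk1g2, Fam160a2 and Ddx50, each with a WT H2A.Z peak at 500 bp, were not members. On the ATACseq side, the peaks of the members Stub1, 5830473C10Rik and Tcte2 began at 231 bp or more from the TSS, while those of Ptpre, 4930474N05Rik and Fbxl14 lay 255, 259 and 261 bp away and kept these genes out.

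The nearest WT H2A.Z peak lay beyond 500 bp but within 1000 bp of the TSS at 111 members. It was upstream at 90 of them and downstream at 21. Within 5 kb, 46.1% of the members (95% interval 41.1 to 51.2) had a WT H2A.Z peak, and within 50 kb 88.9%. Over all eligible TSSs these shares were 49.95% and 77.9%. In neither liver was there H2A.Z within 5 kb of 160 members, 43.4%, and within 50 kb of 27, 7.32%. The shares without it over all eligible TSSs were 47.8% and 19.3%, so a large distance was not particular to members. The members thus ranged from promoters at the border of an H2A.Z domain to promoters far from any.

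The member farthest from H2A.Z in both livers was Fbxl7, an F-box protein, with the nearest peak at 430245 bp in WT and 549182 bp in Uhrf1hepKO. Lmcd1, a LIM domain protein, was 217425 and 182726 bp away. St6galnac3, a sialyltransferase, was 188004 and 142489 bp away. Slc25a36, a mitochondrial pyrimidine nucleotide carrier, Prkar2b, a regulatory subunit of protein kinase A, and Ephb3, an ephrin receptor, were between 106303 and 128682 bp away in both livers. Of these 6, Slc25a36 had an ATACseq peak also in Uhrf1hepKO.

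The question that the knockout liver can answer is how far the pattern recurs in a second mouse of another genotype. A Uhrf1hepKO ATACseq peak lay at 240 of 369 members, 65.0% (60.04 to 69.7), and a Uhrf1hepKO H2A.Z peak at 73, 19.8% (16.04 to 24.2). Both measures were independent of the rule. With H2A.Z on 1 side in WT, 74.9% of promoters were open in Uhrf1hepKO and 93.5% had H2A.Z there, and with H2A.Z on both sides 77.3% and 99.1%. Among TSSs with neither peak in WT, 2.51% had a Uhrf1hepKO H2A.Z peak. Genotype and mouse cannot be told apart with 1 liver of each.

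In Uhrf1hepKO 185 members were open without H2A.Z, 55 were open with H2A.Z, 111 had neither and 18 had H2A.Z alone. The whole rule was met in Uhrf1hepKO by 412 TSSs, which were 2.23% of the eligible TSSs and 11.6% of those open in that liver. The 185 shared promoters made up 50.1% of the members and 44.9% of the 412. Of the 227 promoters that met the rule in Uhrf1hepKO only, 90 had both ATACseq and H2A.Z in WT, 96 had neither and 41 had H2A.Z alone.

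The share of members with a Uhrf1hepKO ATACseq peak moved with the WT fold. In the lowest class of WT fold 41.5% of 147 members had a peak in Uhrf1hepKO, against 48.7% and 52.7% of the promoters with H2A.Z on 1 side and on both sides. In class 2 these shares were 62.2%, 68.8% and 72.2%. In class 3 the share was 93.8% (86.4 to 97.3) for members and 87.7% and 84.5% for the others, and in the highest class 92.2%, 94.9% and 95.2%. Within each class the interval of the members overlapped those of both other groups, and whether the WT fold accounts for the lower share over all members was not tested.

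**Figure D2:**
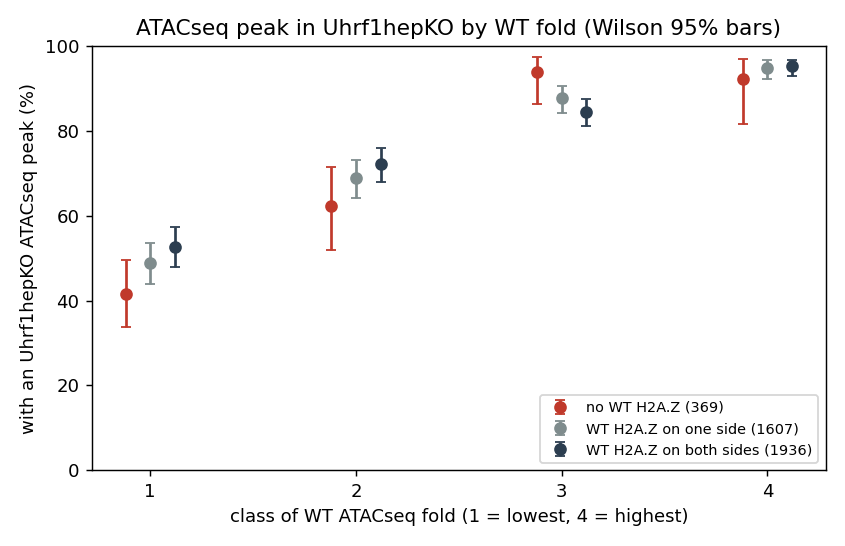
Percent of open promoters with an ATACseq peak in Uhrf1hepKO (y axis) by class of the WT ATACseq fold (x axis, 4 classes of equal size over all open promoters, 1 is the lowest), with Wilson 95% bars, for members (red) and for promoters with WT H2A.Z on 1 side (gray) or both sides (dark blue). The share of members was 41.5% in the lowest class and 92.2% in the highest.

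The members with the highest WT ATACseq fold were Brsk2, a neuronal kinase, at 9.89, and Prmt5 at 9.76. In Uhrf1hepKO the folds were 6.56 and 8.43, on the scale of that list. Otud3, a deubiquitinase, followed with 8.34 and 5.87. Evi5l, Scai, Esyt2, Alkbh7, Wdr18, Fxr2, Rplp0 and Cyth2 had WT folds from 6.84 to 7.38 and each had a Uhrf1hepKO ATACseq peak. Only Arhgap22, a GTPase-activating protein, was among these 12 without one, at a WT fold of 6.997.

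Of the 12, Prmt5 alone had H2A.Z within 500 bp in Uhrf1hepKO, at 425 bp, and its nearest WT peak lay at 592 bp. Evi5l, Scai, Esyt2 and Fxr2 also had WT H2A.Z between 537 and 621 bp from the TSS. Brsk2, Otud3, Wdr18, Rplp0 and Cyth2 had none within 13 kb in either liver. At these promoters an ATACseq peak without H2A.Z within 13 kb thus recurred in Uhrf1hepKO. Their WT fold chose them and the rule excluded WT H2A.Z within 500 bp, so these parts are a description.

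After Arhgap22, the members with the highest WT fold and no Uhrf1hepKO ATACseq peak were Inpp5e, an inositol phosphatase of cilia, at 6.51, and Sh3glb1, a protein of membrane curvature, at 5.85. Kif23, a kinesin of cytokinesis, had a WT fold of 5.75, Lmcd1 of 5.33 and Camkk1, a calcium-dependent kinase, of 5.25. Eif4ebp2, a repressor of translation initiation, had 5.09 and Usp1, a deubiquitinase of DNA repair, 4.89. Of all 129 members without a Uhrf1hepKO ATACseq peak, 7 had one within 1 kb of the TSS and 17 within 5 kb.

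Of the 73 members with Uhrf1hepKO H2A.Z, 36 had a WT H2A.Z peak beyond 500 bp but within 1000 bp, so that at these the livers differed in how near to the TSS the peak reached. At 27 the nearest WT H2A.Z peak was more than 5 kb away. The H2A.Z summit lay upstream of the TSS at 48 and downstream at 25. The median fold of these peaks in the Uhrf1hepKO list was 5.11, below the 7.44 and 8.83 at promoters with WT H2A.Z on 1 side and on both sides. WT H2A.Z chose these groups, so the comparison is a description. The median was 5.35 over that list on chromosomes 1 to 19, X and Y, and 4.65 at TSSs with neither peak in WT.

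Rnf44 had the highest fold of Uhrf1hepKO H2A.Z, 10.9, at 486 bp from the TSS, and its WT peak of fold 9.02 lay at 504 bp. Syvn1, a ubiquitin ligase of endoplasmic reticulum degradation, had a fold of 7.204 at 36 bp and its nearest WT peak at 603 bp. Rmnd5a, Ubb, a ubiquitin gene, Gsk3b, the glycogen synthase kinase, and Hnrnpa3, an RNA-binding protein, had WT H2A.Z between 550 and 933 bp away. Mrm1, a mitochondrial rRNA methyltransferase, and Mxd4, a MAX-binding repressor, had none within 8 kb in WT, and folds of 6.97 and 6.51 at 180 and 426 bp in Uhrf1hepKO.

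The members were rich in CpGs for the most part. The median was 77 CpGs within 500 bp on either side of the TSS, the same as with H2A.Z on 1 side. It was 59 with H2A.Z on both sides and 36 over all eligible TSSs. At the 111 members with WT H2A.Z beyond 500 bp but within 1000 bp the median was 95. At the other 258 it was 65.5, below promoters with H2A.Z on 1 side and near the 66 of all open promoters with H2A.Z. The median GC content was 62.6% over all members and 60.6% at these 258. With H2A.Z on 1 side and on both sides it was 61.6% and 56.7%. The spread was wide, from 0 CpGs at 4931408C20Rik and 1 at Cyp3a59 and Gm3486 to 154 at Chd1, 162 at Zbtb18 and 172 at Nsd2. Chd1 is a chromatin remodeler, Zbtb18 a zinc finger repressor and Nsd2 a histone methyltransferase.

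Absence of H2A.Z within 500 bp was most frequent at both ends of the CpG range. Among open promoters with 15 CpGs or fewer, 32 of 54 were members, 59.3% (45.97 to 71.3). The share was between 5.47% and 10.7% in the classes from 16 to 100 CpGs. Above 100 CpGs it was 21.2% (17.5 to 25.4), 86 of 406. The rise at this end depended largely on the 500 bp limit. No WT H2A.Z peak lay within 1000 bp at 36 of these 406 open promoters, and at 28 of the 54 with 15 CpGs or fewer. In Uhrf1hepKO, an independent pair of libraries, the share of open promoters without H2A.Z was 64.2% at 15 CpGs or fewer, between 7.93% and 11.6% in the middle classes and 23.6% above 100.

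**Figure D3:**
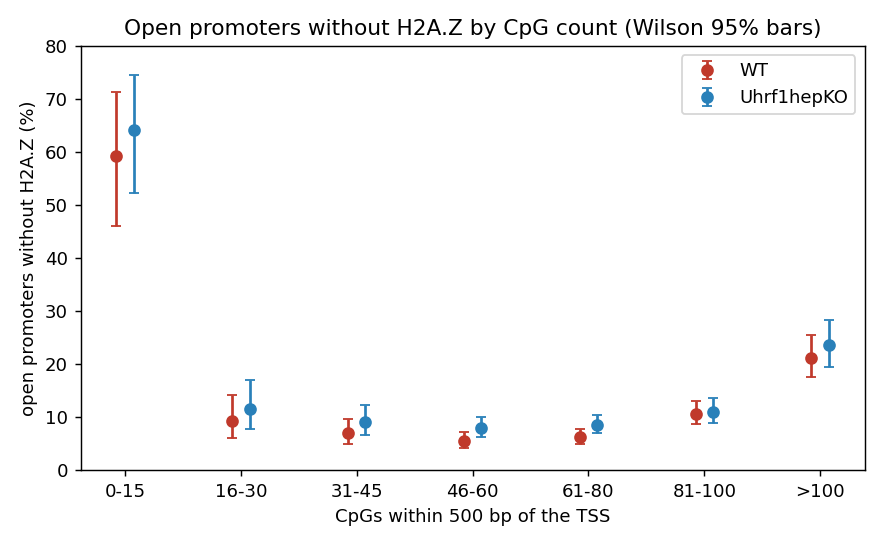
Percent of open promoters without H2A.Z within 500 bp (y axis) by CpG count, taken over 500 bp to either side of the gene start (x axis), with Wilson 95% bars, in the WT liver (red) and the Uhrf1hepKO liver (blue). Both livers had the highest share at 15 CpGs or fewer (59.3% and 64.2%) and a second rise above 100 CpGs (21.2% and 23.6%). Of the 86 WT promoters without H2A.Z above 100 CpGs, 50 had WT H2A.Z within 1000 bp.

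The ends of this range differed in the H2A.Z around them. Of the 86 members above 100 CpGs, 50 had a WT H2A.Z peak beyond 500 bp but within 1000 bp of the TSS, 58.1%, and 21 had none within 5 kb in either liver. Of the 32 members with 15 CpGs or fewer, 4 had such a peak, 12.5% (4.97 to 28.1), and 19 had none within 5 kb in either liver. Open in Uhrf1hepKO were 68.6% of the CpG-rich end and 37.5% of the CpG-poor end. At open promoters with H2A.Z and 15 CpGs or fewer, 10 of 22 were open in Uhrf1hepKO.

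Motifs were sought from 250 bp before to 50 bp after the TSS, on both strands unless stated, and a match is a description of the sequence. The ETS motif CCGGAA, bound by factors such as GABPA, was present at 17.9% of the members (14.3 to 22.1), 31.7% of the open promoters with H2A.Z and 15.4% of all eligible promoters. The CCAAT box, the site of NF-Y, was present at 57.2% (52.1 to 62.1), 48.1% and 38.4%. It was at 64.9% (57.7 to 71.4) of the 185 members that met the rule in both livers and at 42.6% (34.4 to 51.3) of the 129 without a Uhrf1hepKO ATACseq peak, so that the higher share was not seen at the latter. The GC box GGGCGG of SP and KLF factors differed little, with 67.8% of members and 67.0% of open promoters with H2A.Z.

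Among promoters with over 60 CpGs, 18.8% of 239 members and 31.5% of the open promoters with H2A.Z held the ETS motif, and the CCAAT box was at 59.4% and 45.2%. CpG content still differed within this class, as 86 of these members and 320 of the 2093 others had over 100 CpGs. The NRF1 motif GCGCATGCG was at 2.71% of members and 6.44% of open promoters with H2A.Z, and the ZBTB33 motif TCTCGCGAG at 0.271%, which is 1 member, and 2.60%. The same letters were then sought at the 227 promoters that met the rule in Uhrf1hepKO only. There the ETS motif was at 14.5%, against 32.5% of promoters open with H2A.Z in that liver, and the CCAAT box at 52.4% and 51.4%.

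The E-box CACGTG was at 15.2% of members and 12.6% of open promoters with H2A.Z. A TATA box was found at 6 members, 1.63%, and at 0.734% and 2.75% of the open promoters with H2A.Z and of all eligible promoters. The CRE, YY1, CTCF and FOXA letters were at between 1.90% and 3.79% of members and the HNF4, C/EBP and HNF1 letters at 0.542% or less. Over all members, the intervals of the ETS motif and the CCAAT box were separate from those of open promoters with H2A.Z, and those of the GC box and the E-box overlapped.

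**Figure D4:**
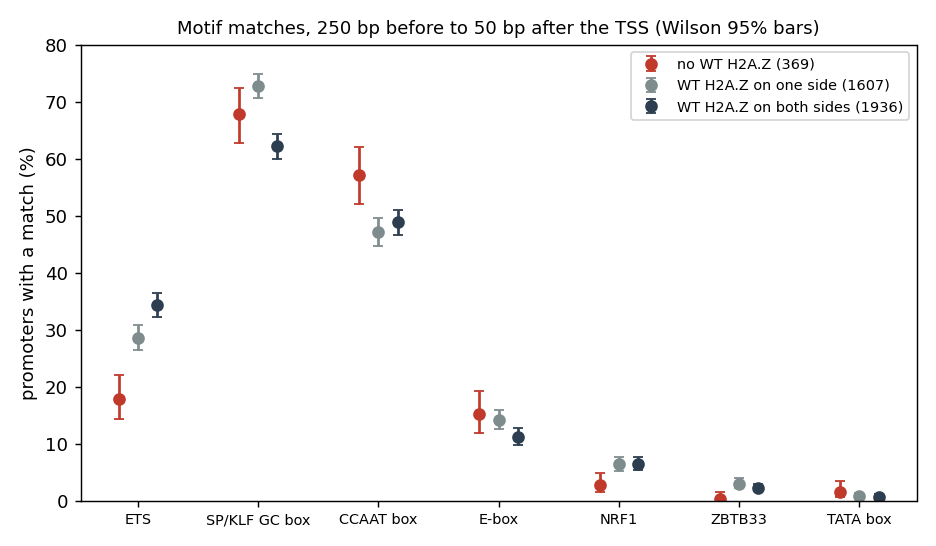
Percent of promoters with a motif match between 250 bp before and 50 bp after the TSS (y axis) for 7 motifs (x axis), with Wilson 95% bars, for members (red) and open promoters with WT H2A.Z on 1 side (gray) or both sides (dark blue). Of the 3 groups, members had the lowest share with the ETS motif (17.9%) and the highest with the CCAAT box (57.2%).

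Genes were then grouped by function. The share to set beside each count below is 9.43% of all open promoters in WT and 11.6% in Uhrf1hepKO. Among the genes that the study lists as liver enriched, which were taken from a human liver proteome, 24 promoters were open in WT and 15 of them were members, 62.5% (42.7 to 78.8), against the 9.43% of all open promoters. In Uhrf1hepKO 18 of 29 open promoters of the list lacked H2A.Z, 62.1% (44.0 to 77.3), against 11.6%, and 6 were shared. The 15 members had a median of 12 CpGs. At 15 CpGs or fewer, 11 of 13 open liver enriched promoters were members, 84.6%, and 21 of 41 others, 51.2%, with overlapping intervals. Above 15 CpGs the counts were 4 of 11, 36.4% (15.2 to 64.6), and 333 of 3847, 8.66% (7.81 to 9.59). These 4 were Pck1, Cth, Acot12 and Acaa2, with 22, 42, 48 and 61 CpGs. Acot12 and Acaa2 had WT H2A.Z at 667 and 502 bp. CpG content was not matched within the 2 classes, and a difference apart from it was not tested.

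The liver enriched members of highest WT fold were Hsd17b13, an enzyme of lipid droplets, at 5.06, Hpx, which carries heme in plasma, at 4.43, Agt at 4.39 and Orm1, an acute phase protein, at 4.33. Hsd17b13 and Agt were open also in Uhrf1hepKO, at 4.30 and 3.59, and Hpx and Orm1 had no peak there. Of all 15, 6 were open in Uhrf1hepKO and 1, Cyp3a59, had H2A.Z there. The promoters that met the rule in Uhrf1hepKO only included Alb, albumin, with a fold of 4.18, and Cyp7a1, the rate-limiting enzyme of bile acid synthesis, with 3.60. These and Fga, Cyp1a2 and C3 below had no ATACseq peak in WT and were chosen after their values were seen.

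Among 7 open genes of complement and coagulation, 3 were members. They were Fgg (WT fold 4.27, Uhrf1hepKO 4.26), Mbl1, a mannose-binding lectin (3.88, no peak), and C4b, a complement component (3.92 and 3.80). Fgg lay 46257 bp from the nearest WT H2A.Z peak and 45763 bp in Uhrf1hepKO, while C4b had WT H2A.Z at 610 bp and Uhrf1hepKO H2A.Z at 308 bp. In Uhrf1hepKO the 3 of 7 were Fgg, Fga and C3, so that the count was the same and 1 gene was shared.

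Cytochrome P450 genes gave 2 of 6 open promoters, Cyp3a59 and Cyp4f14, at WT folds of 3.80 and 3.75. In Uhrf1hepKO 5 of 9 lacked H2A.Z, among them Cyp7a1, Cyp1a2 and Cyp4f14. The serpins Serpina3k and Serpina3m share 1 annotated TSS and 1 ATACseq peak of fold 3.65. Apon, an apolipoprotein, had a WT fold of 3.90 and H2A.Z at 402 bp in Uhrf1hepKO, and Abcg5, a sterol exporter, had a WT fold of 3.99 and no peak in Uhrf1hepKO.

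In glucose metabolism 2 of 5 open promoters were members, both shared with Uhrf1hepKO. Pck1, which commits carbon to gluconeogenesis, had folds of 3.54 and 3.59, with H2A.Z at 17030 and 17025 bp in the 2 livers. Pcx, pyruvate carboxylase, had 5.54 and 6.09, with H2A.Z at 11604 and 11600 bp. In cholesterol and fatty acid synthesis 2 of 14 were members, Insig1, which retains SREBP in the endoplasmic reticulum, at 5.27 and 4.92, and Sc5d, a sterol desaturase, at 6.05 and 4.81. Hmgcs1 and Srebf2 were among the other open promoters of that list that had WT H2A.Z within 500 bp.

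In the unfolded protein response, 5 of 15 open TSSs were members, but they stand for 4 genes, because Ddit3 has 2 gene entries with neighboring TSSs under 1 ATACseq peak. Hspa5 had folds of 5.08 and 6.34, Herpud1, an adaptor of protein degradation, 4.57 and 3.83, Ddit3, the transcription factor CHOP, 4.34 and 5.45, and Syvn1 3.66 and no peak. In Uhrf1hepKO 1 of 14 open TSSs lacked H2A.Z, Herpud1, and H2A.Z was called at 482 bp from Hspa5 and at 378 and 433 bp from the TSSs of Ddit3. Syvn1, without an ATACseq peak there, had H2A.Z at 36 bp. At Ddit3 the nearest WT peak was at 524 bp, and at Hspa5 it was at 16754 bp. The other open genes of the list, such as Eif2ak3, Atf4 and Dnajb9, held H2A.Z within 500 bp in both livers.

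The circadian clock gave 3 of 11 open promoters, 27.3% (9.75 to 56.6) against 9.43%, and all 3 met the rule in both livers. Per2 had folds of 4.98 and 4.01, with H2A.Z at 3940 and 6432 bp. Dbp and Tef, which are both transcription factors driven by the clock, had folds of 4.196 and 4.14, and of 5.25 and 6.89. H2A.Z lay 731 and 735 bp from Dbp and 28947 and 28940 bp from Tef. Clock, Arntl, Cry1 and Cry2, which like Per2 belong to the core of the clock, were open with H2A.Z in WT. The livers were collected between 9am and noon, and no other time of day was analysed here.

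Immediate early genes gave 4 of 11, 36.4% (15.2 to 64.6) against 9.43%, again all in both livers. Jun, a subunit of AP-1, had folds of 6.05 and 4.09, Klf2, a zinc finger factor, 4.74 and 5.82, Gadd45b 3.85 and 4.83, and Gadd45g 3.64 and 3.87, the latter genes both encoding stress response proteins. The nearest H2A.Z was at 611 and 1490 bp from Jun and at 15274 and 15268 bp from Klf2. In Uhrf1hepKO 6 of 15 lacked H2A.Z. Fos, Klf6 and Btg2 were open with H2A.Z in both livers.

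The Klf genes were looked at because of Klf2, after the values were seen. Of 8 open promoters 6 were members, with Klf2, Klf5 (4.55), Klf10 (4.04) and Klf9 (3.67) the highest in WT. Klf2, Klf10 and Klf13 met the rule in Uhrf1hepKO, and Klf3, Klf5 and Klf9 had no ATACseq peak there. Nearest WT H2A.Z peaks ranged from 562 bp at Klf13 to 65158 bp at Klf5, and the CpG counts from 75 to 125.

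Of the mitochondrial lists, the subunits of oxidative phosphorylation gave 4 of 28, Uqcrc1 (4.68), Ndufs7 (4.51), Cox7a1 (3.68) and Cox8a (3.52). Cox8a alone met the rule in Uhrf1hepKO. Ndufs7 and Cox7a1 had H2A.Z there at 405 and 185 bp, and Cox7a1 and Uqcrc1 had no ATACseq peak there. Mitochondrial carriers gave 3 of 13, Slc25a36 at 5.40, Slc25a42 at 4.65 and Slc25a34 at 3.74, and protein import 1 of 10, Tomm40, a pore of the outer membrane, at 5.06. Of the hepatocyte transcription factors none of the 3 open promoters was a member, and in Uhrf1hepKO 3 of 4 lacked H2A.Z. None of 18 open promoters of mitochondrial ribosomal proteins was a member.

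Other lists held shares of members below that of all open promoters. Cytosolic ribosomal proteins gave 1 of 39, Rplp0 of the ribosomal stalk, and zinc finger genes of the Zfp series 3 of 144, 2.08% (0.711 to 5.95), which were Zfp523, Zfp292 and Zfp398. Proteasome subunits (14 open), RNA polymerase subunits and general transcription factors (24), Mediator (14), splicing factors (16), cilium assembly (14) and the genes of H2A.Z and its exchange machinery (14) gave 0. The counts of 0 allow shares of up to 13.8% for the list of 24 and 21.5% for the lists of 14, above the 9.43% of all open promoters. Of these lists, only the Zfp series had an interval below that share.

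Translation initiation factors gave 3 of 23, 13.0%, Eif4ebp2, Eif5 (4.11) and Eif1 (3.64), and ubiquitin-conjugating enzymes 2 of 18, 11.1%, Ube2c (6.45), which drives mitotic protein degradation, and Ube2n (3.97). Rars, a tRNA synthetase, Mbd3, a subunit of the NuRD complex, and Gins4, a subunit of the replicative helicase, were the only members of their lists. The histone genes Hist2h2aa1 (4.13), Hist2h2aa2 (4.52) and Hist2h2bb (4.04) were 3 of 16. In Uhrf1hepKO, 5 of 16 lacked H2A.Z and 2 were shared.

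The cell proliferation genes of the study gave 15 of 205 open promoters, 7.32% (4.48 to 11.7), and 12 of 199, 6.03%, in Uhrf1hepKO. This list was drawn by the study from states built with the WT libraries, so it is not independent of them. The members of highest WT fold were Ube2c, Nek2, a kinase of the centrosome (6.43), Fam83d, a spindle protein (5.15), and Cbx8, a Polycomb subunit (5.14). E2f1, which drives entry into S phase and was picked after its values were seen, was a member by its WT H2A.Z peak at 587 bp, and had H2A.Z at 303 bp in Uhrf1hepKO.

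**Figure D5:**
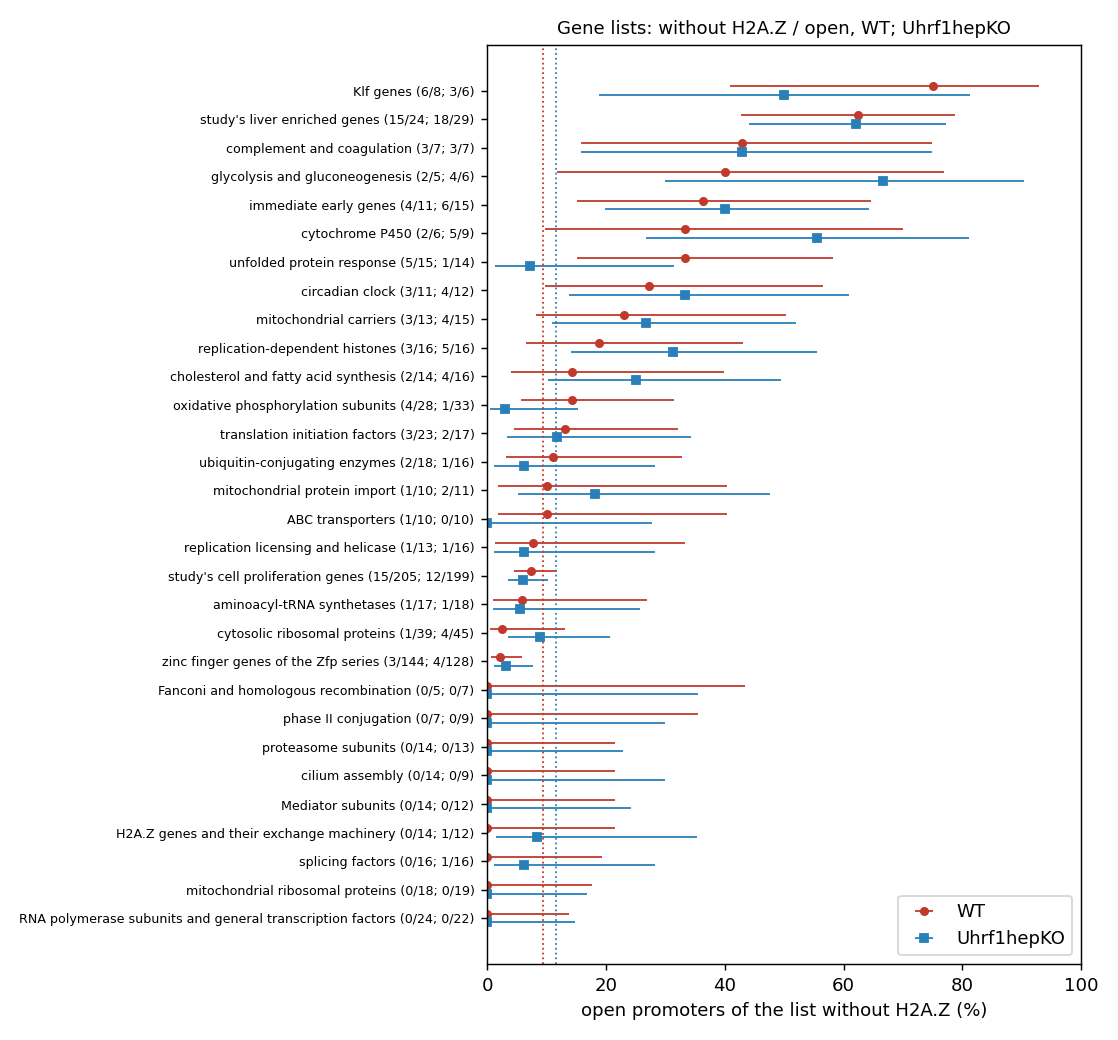
Percent of the open promoters of each gene list that lacked H2A.Z within 500 bp (x axis) in WT (red circles) and Uhrf1hepKO (blue squares), with Wilson 95% bars, for lists with at least 5 promoters open in WT. Counts are in the labels, and dotted lines mark the shares of all open promoters, 9.43% and 11.6%; the liver enriched list was at 62.5% and 62.1% and the Zfp series at 2.08% and 3.12%.

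The set held some promoters in repeated sequence, where reads have several possible placements. In 44 members over 10% of the 32-base words within 500 bp of the TSS occurred more than once in the genome, and in 17 at least 50% did. The widest WT ATACseq peaks of the set were of this kind or low in CpGs, with AW822073 at 2280 bp, 4931408C20Rik at 2103, Gm3453 at 1802 and Duxf3, a Dux family gene, at 1504. Cpeb2, an RNA-binding regulator of translation, was next at 951 bp with no repeated words. Chromosome 14 held 22 members, 15.1% of its open promoters, of which 12 lay outside repeated sequence. Without the 44, the set was 325 promoters, of which 66.2% were open in Uhrf1hepKO and 20.6% had H2A.Z there, so the shares differed little. Hist2h2aa1 and Hist2h2aa2, at 66.7% and 72.7% repeated words, are near-identical copies and cannot be told apart with confidence.

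The 369 TSSs had 367 distinct gene symbols and 365 distinct WT ATACseq peaks, as 4 pairs shared a peak. Another coding transcript of the gene started within 500 bp of WT H2A.Z at 21 members. A noncoding TSS on the opposite strand lay within 1 kb of 58, 15.7%, against 13.9% of the open promoters with H2A.Z. Any other TSS lay within 1 kb of 74, 20.1%, against 19.4%, so that these neighbors were about as frequent at both.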

How the data were processed

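ATACseq and H2A.Z ChIPseq were analysed in 1 WT and 1 Uhrf1hepKO liver, as peak lists. Alignment by the authors was to GRCm38.p4 (BWA-MEM), followed by PICARD. Peaks were called separately for each library with MACS2 (p-value 0.05, broad mode for ATACseq). The MACS2 version, the control and the mode for H2A.Z are not given in the sources used here. The highest q-values listed were 0.0997 and 0.0993 for ATACseq and 0.04996 and 0.0489 for H2A.Z, and whether a q limit also applied is not stated. The deposited score is a display value, the deposited fold is a ratio of the read pileup to its local background, and the deposited −log10 p- and q-values come from the same caller. Folds were ranked within a list only, as libraries were not scaled to each other.

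TSSs were those of GENCODE vM21, and bases were read from the GRCm38 FASTA of RefSeq. Windows overlapped with 1 bp. The letters of 105 members at the same start in the RefSeq promoter table were identical. Distances run from the TSS to the nearest edge of a peak. Genes were named as the members highest in WT fold (12), in Uhrf1hepKO H2A.Z fold (8) and in WT fold with no Uhrf1hepKO ATACseq (8), farthest from H2A.Z (6), widest (5), at the edges of the rule (3 on each side), at both ends of the CpG range (3 each), and in gene lists (all below 6 members, otherwise 4). Other genes were named after their values were seen. Members and lists were chosen with earlier results of these data known. Window steps were tested on simulated data, and 1000 of 1000 TSSs were classified right. Software was pandas 2.3.3, numba 0.67.0, scipy 1.17.1, matplotlib 3.10.9 and numpy 2.4.6 under Python 3.11.15.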

Additional observations from a re-analysis of the deposited data

Results flagged for a closer look

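Chromosome X was outside the rule and no comparison used it. The same windows found 11 open promoters without H2A.Z among 53 open ones there in WT, which included Usp9x, a deubiquitinase, Kdm6a, an H3K27 demethylase, and Piga, an enzyme of GPI anchors. In Uhrf1hepKO 7 of 37 open promoters met the rule, and 3 met it in both livers. The genes named here were chosen after they were seen.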

How the results depend on the processing

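Each of 8 values was recomputed under 10 or 11 alternatives, and 70 of 82 recomputed values stayed within the interval of the main value or within 1.5 times the count. Restricting ATACseq to peaks whose fold reached the median of their list left 187 members, with medians of 8.09 CpGs per 100 bp and 64.0% GC, and 71.3% of open promoters with H2A.Z open in Uhrf1hepKO. Keeping only such H2A.Z peaks gave 649 members, of which 27.9% had a WT H2A.Z peak that reached this limit within 5 kb. The main value counted all WT H2A.Z peaks. With H2A.Z sought within 1000 bp, the medians were 6.54 CpGs per 100 bp and 60.6% GC, and 22.9% had WT H2A.Z within 5 kb. Seeking H2A.Z also within 500 bp of the edges of the ATACseq peak, an alternative chosen after seeing the data, gave 6.69 CpGs per 100 bp, 61.1% GC and 32.1%; the main values were 7.69, 62.6% and 46.1%. The wider windows and the fold limits on H2A.Z change by construction which promoters can have H2A.Z nearby. The shares of members with ATACseq, with H2A.Z and with the whole rule in Uhrf1hepKO stayed within their intervals under every alternative run. No replicate could be left out, and no paired analysis was possible because each group had 1 library. Peaks missed for lack of reads cannot be told apart from absent ones.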
